A study of Drosophila melanogaster with 14 samples.

Results

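The genes ninaE, ninaC, ninaA, trp, trpl, norpA, inaC, inaD, Arr1 and Arr2 of fly phototransduction were followed by symbol through nuclear RNA libraries of Kenyon cells, the intrinsic neurons of the mushroom body. They were 10 of the 13931 genes in the gene table, all 10 symbols were present, and all 10 reached 10 TPM (a level scaled for transcript length and for the library's total) in 1 or more of the 14 libraries, as did 8646 genes in all. The question was how far the levels of genes best known from photoreceptors moved together in nuclei purified from other cells, and which of them did not. Only 2 of the 10 genes, ninaE and norpA, stayed above 10 TPM in every library, and they behaved differently. The level of ninaE followed the summed level of 8 low photoreceptor genes. Sums of markers of several other head tissues followed it more closely over the 14 libraries, led by the yolk protein genes of fat body. Without the 2 libraries with the fewest genes, the correlation with ninaE was 0.93 for the 8 genes in place of 0.59. It was then 0.96 for the yolk protein genes, and the sums of the other tissues were not compared without those 2 libraries. Gene by gene over the 14 libraries, only the lists of fat body and of neurons with other transmitters had a higher median correlation with ninaE than the 8 genes. The level of norpA followed neither the 8 low genes nor the yolk protein genes, and it differed between Kenyon cell subtypes.

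In a fly photoreceptor, light is absorbed by an opsin, which activates a Gq protein and through it a phospholipase C. Hydrolysis of the membrane lipid PIP2 then opens cation channels of the TRP family, and calcium entering through them feeds back on the cascade by way of protein kinase C, a scaffold protein, arrestins and a myosin. In the retina these genes are strongly expressed, and ninaE, which encodes the opsin Rh1 of the outer photoreceptors R1 to R6, is the most familiar of them. Several other components, among them Gq subunits and the phospholipase C, are also used by neurons outside the eye.

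Each library was made by TAPIN-seq, a pull-down of nuclei that carry a GFP-tagged nuclear membrane protein, from about 400 heads of flies of both sexes aged 2 to 5 days. All flies carried the reporter 5XUAS-unc84::2XGFP in an isogenic background derived from Canton-S, and they differed in the split-GAL4 driver. MB607B marked γd cells and MB131B γm+d cells, together the γ class of 4 libraries. MB370B marked α′/β′ap+m cells and MB418B α′/β′m cells, together the α′/β′ class of 4 libraries. MB371B, MB185B and MB594B marked α/βp, α/βs and α/βc cells, together the α/β class of 6 libraries. Each driver gave 2 independent biological replicates. MB131B also labels the γd cells and MB370B the α′/β′m cells, so neighbouring subtypes are not exclusive, and the split-GAL4 lines can label a few neurons outside the mushroom body. None of these lines is meant to label photoreceptors, and the purification started from whole heads.

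TPM sum to the same total in every library, so they keep no read numbers, and a gene at 0 is said to be listed at 0. Genes above 0 TPM numbered between 5632 and 11359 per library, and 2 libraries stood apart with the fewest, γd replicate 1 with 5632 and α/βp replicate 1 with 6534. Markers of the labelled cells were high throughout. The 5 Kenyon cell genes (led by toy and ey, transcription factors of mushroom body development) summed to between 4992 and 8961 TPM and the 4 neuronal genes (led by brp and Syt1, of the presynaptic active zone and synaptic vesicle) to between 8250 and 15080 TPM. Because TPM are scaled by transcript length, levels can be set side by side between genes. In bulk nuclei, fewer cells of a type and less RNA per cell cannot be told apart.

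The opsin gene ninaE (FBgn0002940, 3R:19886255-19888206, minus strand, BDGP6) was the most abundant member in 10 of the 14 libraries and was exceeded by norpA in the other 4. Its level was 447 and 436 TPM in γd, 341 and 912 in γm+d, 328 and 381 in α′/β′ap+m, and 613 and 1280 in α′/β′m. In α/βp it reached 1439 and 3569 TPM, in α/βs 1593 and 1234, and in α/βc 915 and 1127. The span was 10.9-fold, and in α/βp replicate 2 ninaE ranked number 24 of all genes by level. The 6 α/β libraries all lay above the 4 γ libraries, if narrowly (915 against 912 TPM), while 1 α′/β′ library, α′/β′m replicate 2, lay inside the α/β range.

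By subtype mean, ninaE increased in the order α′/β′ap+m, γd, γm+d, α′/β′m, α/βc, α/βs and α/βp, from 354 ± 37.6 to 2504 ± 1506 TPM (SD, n = 2). Of the 6 neighbouring pairs in this order, 4 had overlapping replicates. The exceptions were α′/β′ap+m below γd and α/βc below α/βs. In γm+d, α′/β′m and α/βp the replicates themselves differed 2.68-fold, 2.09-fold and 2.48-fold.

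The chaperone gene ninaA, whose product is a cyclophilin needed to bring Rh1 out of the endoplasmic reticulum, was low. It was listed at 0 in 6 libraries and reached at most 10.9 TPM, in α/βc replicate 1. In 6 of the 7 subtypes it was under 1 TPM in 1 replicate and between 3.96 and 10.9 TPM in the other. No 2 neighbouring subtypes were separate in its order of means. Its exons (871 bases, 2L) lie wholly within exons of CG15824 on the other strand, and the counting is not stated to use strand, although CG15824 itself did not exceed 1.13 TPM.

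The gene ninaC, which encodes a myosin III with a kinase domain found in the light-sensing rhabdomere, ranged from 0.34 to 31.5 TPM. In γd it was at 0.34 and 12.3 TPM, in γm+d at 6.62 and 22.0, in α′/β′ap+m at 6.85 and 7.60, and at 28.1 and 25.9 in α′/β′m. In the α/β class it was at 1.40 and 24.2 TPM in α/βp, 31.5 and 26.9 in α/βs, and 13.1 and 15.6 in α/βc. Its lowest values fell in the 2 libraries with the fewest genes, and elsewhere the replicates of α′/β′ap+m, α′/β′m, α/βs and α/βc lay close together.

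The light-activated channel gene trp was under 16 TPM in all libraries but 1. Its values were 0.22 and 0.95 TPM in γd, 9.24 and 6.95 in γm+d, 2.49 and 2.91 in α′/β′ap+m, and 2.16 and 15.1 in α′/β′m. In α/βp it was at 1.95 and 47.9 TPM, in α/βs at 10.2 and 4.07, and in α/βc at 3.94 and 5.55. The library with the highest trp was thus also the one with the highest ninaE. Its partner channel gene trpl ranged from 1.18 to 26.6 TPM, with its 2 highest values in α′/β′m replicate 2 (26.6) and α/βp replicate 2 (24.9).

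The protein kinase C gene inaC, of the eye-specific kinase that limits the light response, was listed at 0 in both γd libraries and in α/βp replicate 1, and was highest in α/βp replicate 2 (22.6 TPM) and α′/β′m replicate 2 (18.8 TPM). The gene of the PDZ scaffold that holds channel, kinase and phospholipase together, inaD, was also listed at 0 in 3 libraries and was highest in the same libraries, in the reverse order (12.9 TPM in α′/β′m replicate 2 and 9.66 in α/βp replicate 2). Both stayed under 13 TPM in every other library. Exons of inaD overlap those of RpL23, on the opposite strand, by 7 bases.

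The arrestins, which end the activity of the light-activated opsin, differed in level. Arr2, the major arrestin of the fly eye (3L:8647261-8648936, inside an intron of Pex7), was the highest of the low members, with 0 and 19.9 TPM in γd, 14.4 and 31.5 in γm+d, 16.1 and 19.5 in α′/β′ap+m, and 37.3 and 73.2 in α′/β′m. In α/βp it stood at 17.8 and 68.6 TPM, in α/βs at 72.9 and 19.3, and in α/βc at 45.6 and 49.7. Arr1 ranged from 0 TPM in γd replicate 1 to 56.8 in α/βp replicate 2, with 27.1 in α′/β′m replicate 2 and no more than 14.3 elsewhere.

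The remaining member behaved otherwise. The phospholipase C gene norpA (FBgn0262738, X:4322626-4365408, plus strand, BDGP6) was at 505 and 399 TPM in γd, 81.5 and 72.6 in γm+d, 682 and 668 in α′/β′ap+m, and 829 and 733 in α′/β′m. In α/βp it was at 563 and 234 TPM, in α/βs at 310 and 308, and in α/βc at 366 and 333. Replicates lay closer together in the other 6 subtypes than in α/βp. The 4 α′/β′ libraries were the highest of all and did not overlap any other library, and the 2 γm+d libraries were the lowest. In the order of subtype means, from γm+d (77.1 ± 6.28 TPM, SD, n = 2) through α/βs, α/βc, α/βp, γd and α′/β′ap+m to α′/β′m (781 ± 67.5 TPM), 4 of the 6 neighbouring pairs were separate, and only the pairs around α/βp overlapped. The share of separate neighbours over all genes tested was not counted, here or for ninaE and ninaA.

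**Figure D1:**
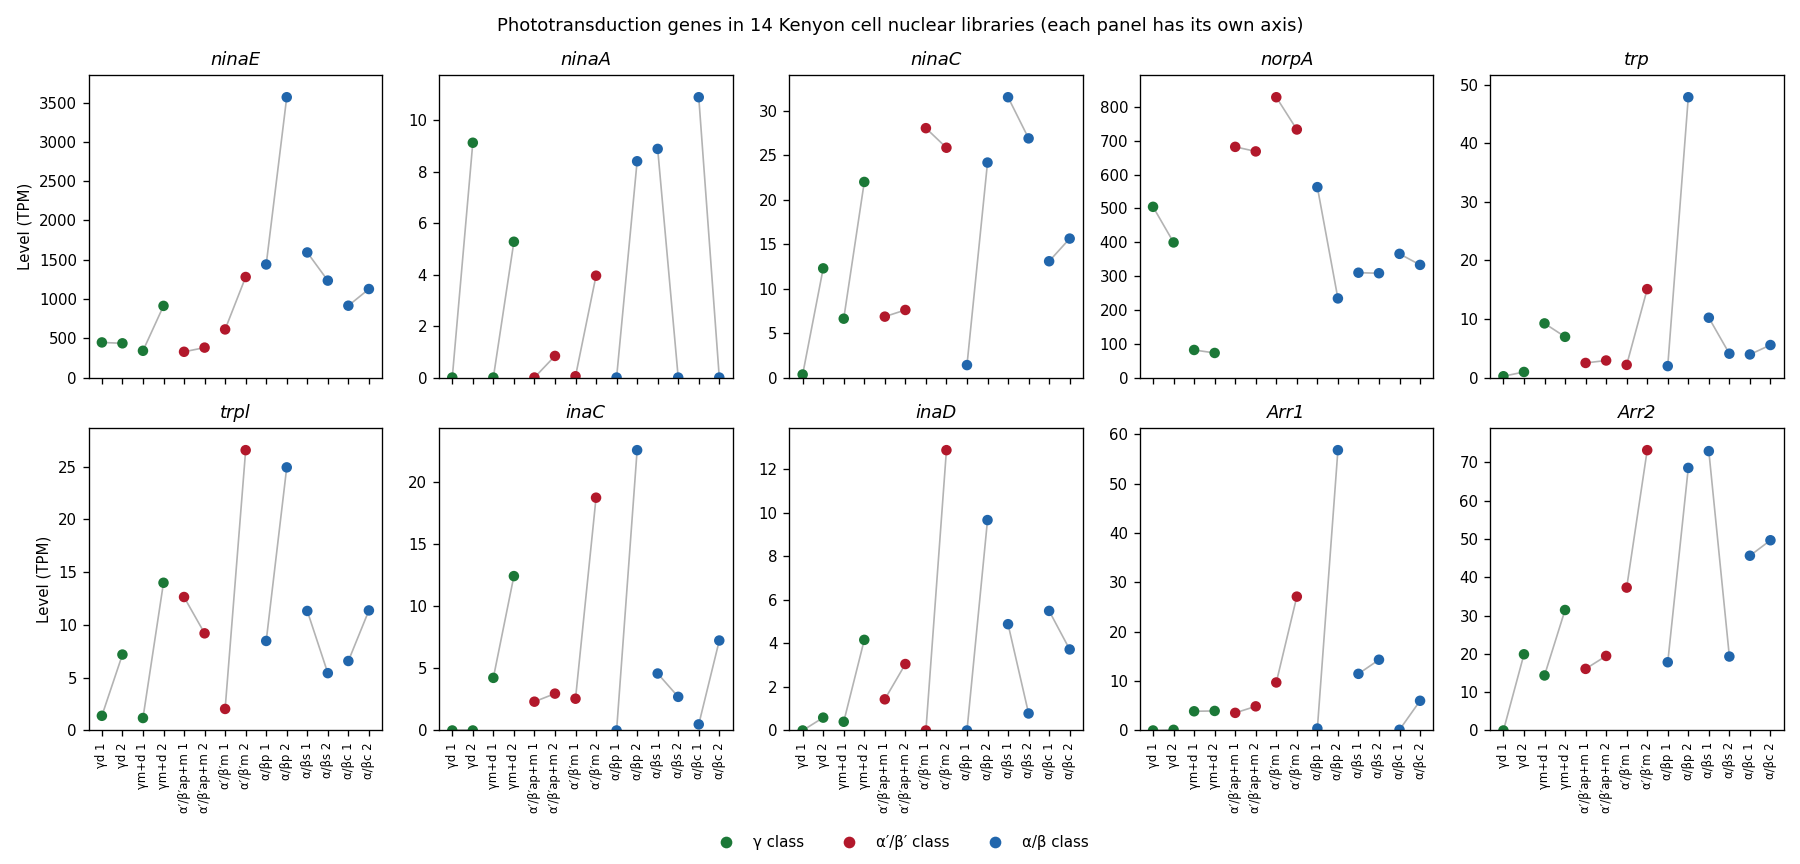
Level of each of the 10 genes (TPM, each panel with its own axis from 0) in the 14 libraries, coloured by class, with a line joining the 2 replicates of a subtype. α/βp replicate 2 is the highest library for ninaE (3569 TPM), trp (47.9), inaC (22.6) and Arr1 (56.8), while norpA is highest in the 4 α′/β′ libraries (668 to 829 TPM).

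Class differences were fitted by limma to log2(TPM + 1) after quantile normalization. The fit counted the 2 replicates of a subtype as separate libraries of their class although they share a driver, so its p-values can be too small. With 1 value per subtype, 56 genes were called between γ and α′/β′ in place of 244. Between γ and α/β it was 57 in place of 268, and between α′/β′ and α/β 160 in place of 423. A call needed a Benjamini-Hochberg adjusted p under 0.05 over the 8646 genes tested and a difference of 2-fold or more. Between γ and α′/β′, 2.82% of genes tested were called, and 1 of the 10 members. This was norpA, at 72.6 to 505 TPM in γ and 668 to 829 in α′/β′, a log2 difference of -2.00 (SE 0.51, limma adjusted p = 0.0379). The γ class was itself split, since mean norpA was 5.86-fold higher in γd than in γm+d, although MB131B also labels the γd cells. The γd libraries had 5632 and 7601 genes above 0 TPM and the γm+d libraries 8836 and 10366. The part of the gene number in this split was not tested. The other 9 members had log2 differences between -1.20 and 1.05 between γ and α′/β′, and the median over all 10 was -0.07 beside -0.16 over all genes tested. The norpA call was lost without either γm+d library (limma adjusted p = 0.128 without replicate 1 and 0.0787 without replicate 2), without any 1 α′/β′ library (0.0808 and 0.0819 for α′/β′ap+m replicates 1 and 2, 0.0891 and 0.0894 for α′/β′m replicates 1 and 2), and without α/βs replicate 1 (0.0519), α/βs replicate 2 (0.0514) or α/βc replicate 1 (0.0508). It was also lost with 1 value per subtype (limma adjusted p = 0.342) and under median-of-ratios scaling (0.286).

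Between γ and α/β, 3.1% of genes tested were called, and again 1 member. Here ninaE was lower in γ, at 341 to 912 TPM, than in α/β, at 915 to 3569, a log2 difference of -1.61 (SE 0.42, limma adjusted p = 0.0422), and mean TPM were 3.08-fold higher in α/β. For norpA the log2 difference was -0.86 (SE 0.47, limma adjusted p = 0.406). Arr2 had the widest difference of the 8 low members (-1.72, SE 0.79, limma adjusted p = 0.303). Of those 8, 7 had a value below 0, with a median of -0.22 beside -0.11 over all genes tested. By limma 0 of the 8 were called, with 1 (Arr2) at an unadjusted p under 0.05. The share of all genes tested at that unadjusted level was not counted, here or for the counts below. The ninaE call was lost without γd replicate 1 (limma adjusted p = 0.109) or 2 (0.108), γm+d replicate 1 (0.14), α′/β′m replicate 1 (0.0574), α/βp replicate 2 (0.0677), α/βs replicate 1 (0.0819) or 2 (0.0626) or α/βc replicate 2 (0.0546), and with 1 value per subtype (0.214).

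Between α′/β′ and α/β, 4.89% of genes tested were called and 0 of the 10 members by limma, although 2 members had an unadjusted p under 0.05. These were ninaE (328 to 1280 TPM against 915 to 3569, log2 difference -1.44, SE 0.42, limma adjusted p = 0.0583) and norpA (668 to 829 against 234 to 563 TPM, log2 difference 1.14, SE 0.47, limma adjusted p = 0.231). The norpA ranges did not overlap. The ninaE difference passed the threshold without α′/β′m replicate 2 (log2 difference -1.88, limma adjusted p = 0.0104), γm+d replicate 2 (0.0466) or α/βc replicate 1 (0.0477), and under median-of-ratios scaling (0.0414). Over the 7 subtypes, the limma F test, called at an adjusted p under 0.05 with no fold threshold, called 14.4% of genes tested, and 2 members. These were norpA (limma adjusted p = 0.00125), with a log2 difference of 3.39 between its highest and lowest subtype, and ninaE (0.0234), with 2.79. Leaving out a library leaves its subtype with 1, which is then assumed to vary like the other groups. Without γd replicate 2, Arr2 passed (limma adjusted p = 0.00516), but γd then rested on replicate 1 alone, the library with the fewest genes and with Arr2 listed at 0. The ninaE call was lost without either α′/β′ap+m library (0.0815 without replicate 1 and 0.0703 without replicate 2), α/βs library (0.0607 and 0.0525) or α/βc replicate 2 (0.0508).

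Beside the ninaE difference between γ and α/β, markers of several other head tissues were measured. The 7 fat body genes summed to 423 to 1331 TPM in γ, 574 to 1976 in α′/β′ and 1644 to 6117 in α/β, and 5 of them reached 10 TPM. In that list 2 of the 5 were called lower in α′/β′ than in α/β, beside 4.89% of all genes tested. They were Yp1, a yolk protein gene (-1.57, SE 0.44, limma adjusted p = 0.0437), and apolpp, the lipophorin precursor gene (-1.67, SE 0.44, limma adjusted p = 0.0315). Between γ and α/β 0 of the 5 were called by limma, beside 3.1% of all genes tested, with 3 at an unadjusted p under 0.05. Fbp1 and fit, also made by fat body, stayed at or under 3.21 TPM. The 4 lens and retina genes, led by retinin, a gene of the corneal lens, summed to 10.3 to 107 TPM in γ, 19.9 to 119 in α′/β′ and 52.1 to 268 in α/β, and the next gene of that list by mean, Cpr72Ec, was at 0 to 32.8 TPM.

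The 7 genes of neurons with other transmitters, led by Gad1 (GABA synthesis) and VGlut (glutamate loading), summed to 36.9 to 69.7 TPM in γ, 25.8 to 85.3 in α′/β′ and 78.9 to 267 in α/β. Gad1 was at 154 and 88.3 TPM in α/βp, 61.7 and 46.9 in α/βc and at most 16.1 elsewhere. For this Gad1 pattern the paper proposes, as most likely, weak driver expression in GABAergic neurons outside the mushroom body. The 14 muscle genes, led by Mlc2 and bt, summed to 167 to 647 TPM in γ, 189 to 409 in α′/β′ and 368 to 1164 in α/β. Of the 12 tested, only Mhc, the myosin heavy chain gene, was called in a class pair. It was lower in α′/β′ than in α/β (-2.51, SE 0.69, limma adjusted p = 0.0425), where 4.89% of all genes tested were called. Glial genes, led by Gs2 and nrv2, summed to 49.2 to 308 TPM over all libraries, and the defining glial gene repo did not exceed 2.18 TPM. The antennal and chemosensory genes, led by Obp19d and Obp56d, summed to 0 to 66.9 TPM, and the haemocyte genes, led by Hml and He, to 0 to 3.77 TPM. The part of any of these cell types in the ninaE difference was not tested.

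Across the 14 libraries, the low members moved with ninaE to differing degrees. Pearson's r of log2(TPM + 1) with ninaE was 0.67 for trp, 0.59 for trpl, 0.57 for Arr2, 0.55 for Arr1, 0.54 for inaD, 0.48 for inaC, 0.43 for ninaC and 0.41 for ninaA, with Spearman's rho between 0.27 (ninaA) and 0.65 (Arr2). For norpA r was -0.10 and rho -0.22. The median over the 9 genes was 0.54, beside 0.15 over all genes tested. These values describe 14 libraries that come in 7 pairs and share a fixed TPM total, and they carry no p-value. Without the 2 libraries farthest from the median ninaE level, α′/β′ap+m replicate 1 and α/βp replicate 2, the median over the 9 genes was 0.37 beside 0.20 over all genes tested, with ninaA at 0.19, inaC at 0.29 and trpl at 0.63. Over the 7 differences between replicates it was 0.59 beside 0.39.

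The low members also moved with each other. Over the 28 pairs of the 8 low members r ranged from 0.11 to 0.87 with a median of 0.61, and all 28 were above 0. Over all pairs of genes tested the median was 0.24 and 71.4% were above 0. Without the 2 libraries with the fewest genes, the lowest of the 28 was -0.11, the median 0.53 and 27 were above 0, beside a median of 0.16 over all pairs. The closest pairs were trp with inaC (0.87), inaC with Arr1 (0.87) and ninaC with Arr2 (0.83), and the loosest was ninaA with Arr1 (0.11). With norpA, in contrast, the other 9 members had r between -0.40 (trp) and 0.08 (trpl), and 1 of 9 was above 0.

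**Figure D2:**
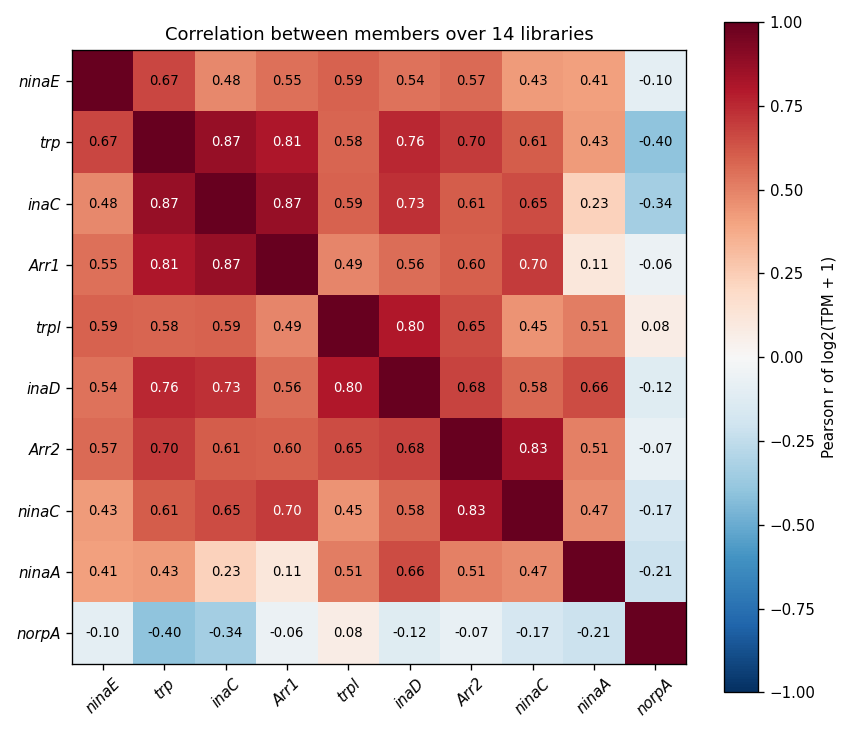
Pearson's r of log2(TPM + 1) between each pair of the 10 genes over 14 libraries, as colour (blue below 0, red above 0) and printed value. The 9 genes other than norpA have r above 0 in all 36 pairs (median 0.59), and the norpA row runs from -0.40 to 0.08.

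Summed, the 8 low members amounted to between 1.95 TPM in γd replicate 1 and 263 TPM in α/βp replicate 2, a wider span than that of ninaE. Over all 14 libraries the sum had an r of 0.59 and a rho of 0.62 with ninaE. It was 30.0 TPM in α/βp replicate 1 beside 1439 TPM of ninaE, and in γd replicate 1 5 of the 8 genes were listed at 0 beside 447 TPM of ninaE. These are the 2 libraries with the fewest genes above 0 TPM. Without them r was 0.93 and rho 0.89 over the other 12 libraries, a choice made after the values were seen, and the ratio of ninaE to the sum ran from 6.29 to 16.8 with a median of 8.89. With them it ran up to 229. The part of library depth in this was not tested, since TPM hold no read numbers. The paper gives read numbers of the libraries in its supplement, which were not used here. The number of genes above 0 TPM had an r of 0.81 with the sum of the 8 low members and 0.16 with ninaE (rho 0.56 and -0.05). Without the 2 libraries with the fewest genes, r was 0.41 and 0.24 (rho 0.29 and -0.01).

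The replicates of a subtype share their driver, so the direction of change between them is a second view of the same relation. In γm+d, α′/β′ap+m, α′/β′m and α/βs, 7 of the 8 low members were higher in the replicate with more ninaE, in α/βp all 8, and in α/βc 6 of 8. In γd, where ninaE differed only 1.03-fold between replicates, 0 of 8 were. The share of all genes tested with this direction was not counted for each subtype. The replicate with more ninaE also had more genes above 0 TPM in 5 of the 7 subtypes, in α/βp 9602 against 6534. The exceptions were α′/β′ap+m (10504 against 10569 genes) and γd (5632 against 7601), and in γd the low members other than inaC, which was listed at 0 in both, were higher in the replicate with more genes. The part of the gene number in this agreement was not tested. In α/βp the sum of the 8 differed 8.76-fold and ninaE 2.48-fold. Gene by gene, inaC and Arr2 had the direction of ninaE in 6 of 7 subtypes, the other 6 low members in 5 and norpA in 2. Over all genes tested the median was 4 of 7, and 19.2% of genes reached 6 or 7.

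**Figure D3:**
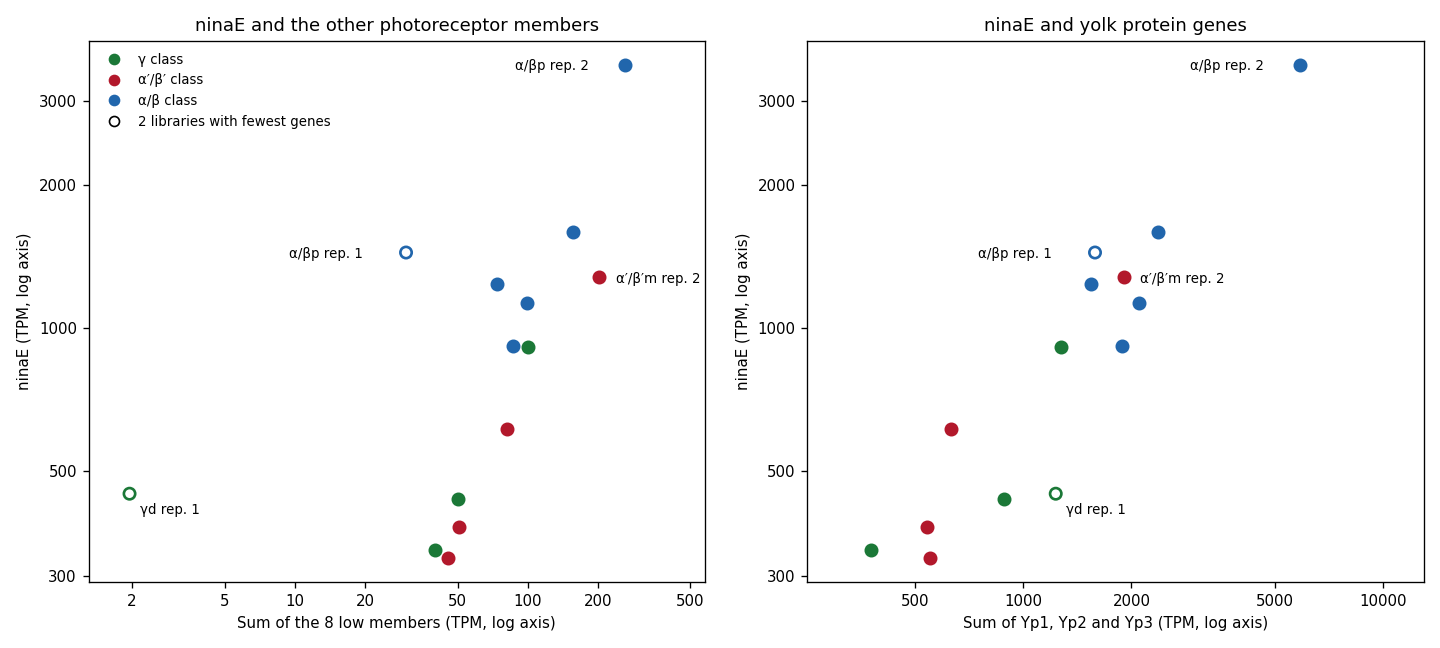
Level of ninaE against the sum of the 8 low members (left) and against the sum of the yolk protein genes Yp1, Yp2 and Yp3 (right), in TPM on log axes, 1 point a library, coloured by class, with open circles for the 2 libraries with the fewest genes above 0 TPM. The open circles lie to the left of the other 12 libraries in the left panel (r 0.93 without them, 0.59 with them), and in the right panel all 14 lie along 1 band (r 0.93).

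The genes most like ninaE over the 14 libraries held none of the pathway genes listed here. Among 8636 other genes, the 5 with the highest r were chas (0.92), CG4341 (0.92), Yp2 (0.92), Msr-110 (0.92) and Adh (0.91). Yp2 encodes a yolk protein, which the fat body of females secretes, and Adh the alcohol dehydrogenase found in fat body. Yp2 ranged from 44.3 to 1578 TPM and Adh from 27.6 to 392, both with their peak in the library with the most ninaE, α/βp replicate 2. The 3 yolk protein genes together ran from 377 to 5891 TPM, and their sum had an r of 0.93 and a rho of 0.92 with ninaE, against 0.59 and 0.62 for the sum of the 8 low members. The relation was not particular to fat body. The summed level of neurons with other transmitters, led by Gad1, had an r of 0.85 with ninaE. It was 0.82 for lens and retina genes, 0.68 for muscle genes and 0.62 for glial genes, and -0.20 for Kenyon cell genes and -0.07 for neuronal genes. For haemocyte genes it was 0.67, but they summed to at most 3.77 TPM and 0 of them reached 10 TPM. Single genes within a list differed widely. Glial genes ran from -0.01 (alrm) to 0.84 (Gs2) and muscle genes from 0.02 (TpnC41C) to 0.81 (Act57B). Lens and retina genes ran from 0.01 (Cpr72Ec) to 0.80 (retinin). Genes of the labelled cells differed too, from -0.41 (dnc) to 0.62 (dac) for Kenyon cell genes and from -0.51 (elav) to 0.43 (brp) for neuronal genes. Median r by gene was 0.87 for fat body and 0.60 for other transmitters. It was 0.49 for muscle, 0.42 for glia and 0.33 for lens and retina, beside 0.55 for the 8 low members. Without the 2 libraries with the fewest genes, r was 0.96 for the yolk protein genes and 0.93 for the 8 low members. The other lists were not compared without them.

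For the members with an r under 0.5 with ninaE, the most alike genes were others again. For norpA they were chinmo, a BTB zinc finger gene of neuronal temporal identity (0.87), CG11000 (0.82), CG42322 (0.78), msi, an RNA-binding protein gene (0.77), and B4 (0.75). All 5 had a mean above 100 TPM, and chinmo ranged from 113 to 806. For inaC they were Cln7, CG34450, CG4293, Tango2 and CG30382 (0.90 to 0.94), and for ninaC CG12393, Ent1, Cap-G, CG11257 and Gr39a (0.89 to 0.91). For ninaA they were CG14356, CG14105, pst, CG34150 and l(2)gl (0.76 to 0.81).

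The rest of the pathway was described with 4 further lists of 26 genes, of which 19 reached 10 TPM. They fell apart by level. The 8 with a mean of at least 100 TPM all had an r below 0 with ninaE, from -0.72 to -0.11. They were the G protein subunit genes Galphaq and Ggamma30A, the lipid cycle genes rdgA (diacylglycerol kinase) and rdgB (phosphatidylinositol transfer), stops, the opsin phosphatase gene rdgC, the receptor kinase gene Gprk1 and the sodium-calcium exchanger gene Calx. Ggamma30A ranged from 1821 to 5566 TPM and Galphaq from 375 to 779. The other 11 had a median r of 0.57, and 9 of them were above 0. The level of 100 TPM that divides them was chosen after the values were seen, as were the names that are not among the leading genes of a list.

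Among those 11 were laza, a lipid phosphatase gene of the photoreceptor cycle (0 to 141 TPM, r 0.87), the opsin genes Rh6 (0 to 18.3 TPM, r 0.85) and Rh4 (0.36 to 62.4 TPM, r 0.69) of inner photoreceptors, rtp, the retinophilin gene (0 to 159 TPM, r 0.69), and Pdh, of retinoid metabolism in the eye (2.65 to 59.8 TPM, r 0.58). The opsin genes Rh5 (-0.22) and Rh7 (-0.19) were the 2 below 0. Rh7, which is also known from central brain neurons, had the highest mean of the other opsins, at 0.44 to 78.2 TPM. Retinoid supply genes other than Pdh were at most 9.32 TPM (ninaB), and ninaD was listed at 0 throughout. Of the other photoreceptor markers, chp, of the photoreceptor surface, had an r of 0.62 at 0.09 to 48.7 TPM, and eys, which encodes a matrix protein of the interrhabdomeral space, an r of 0.07 at 62.8 to 463 TPM. The rest of that list, gl, prom and Hdc, did not exceed 9.62, 7.47 and 3.80 TPM in any library.

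**Figure D4:**
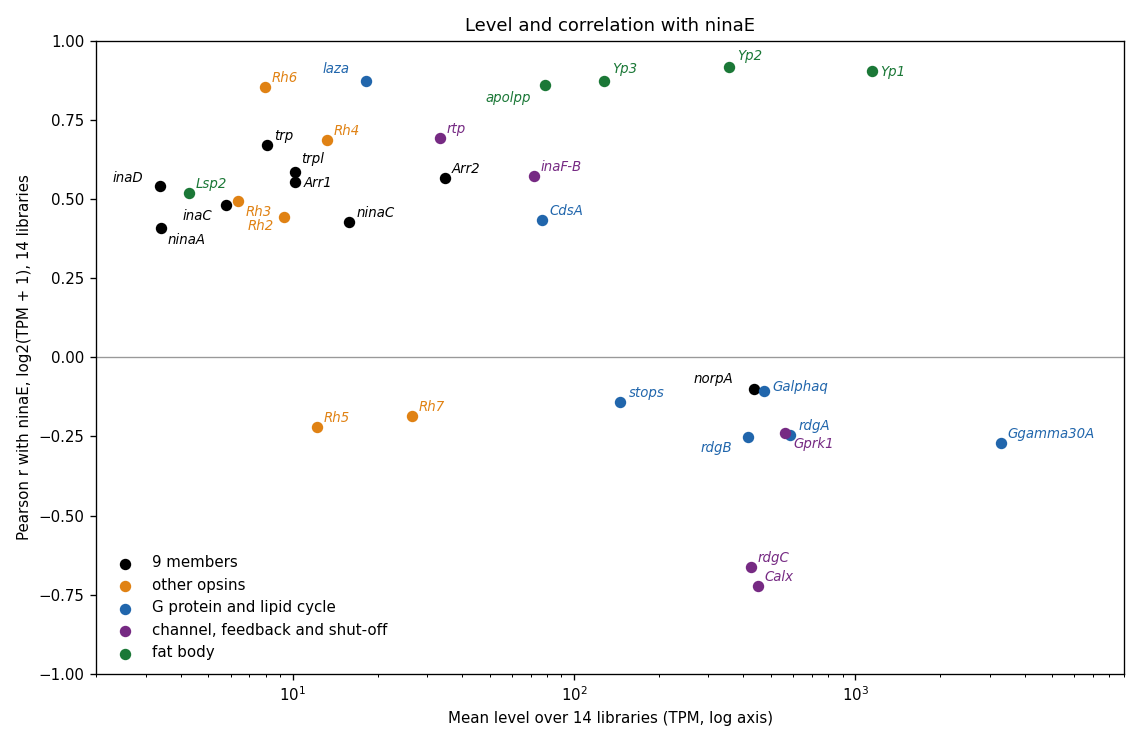
Mean level over the 14 libraries (TPM, log axis) against Pearson's r with ninaE for 9 members, 3 lists of pathway or fat body genes and the other opsins, 1 point for each gene that reached 10 TPM in any library. The 8 low members lie between 0.41 and 0.67, norpA lies at -0.10 beside Galphaq (-0.11), and the yolk protein genes lie between 0.87 and 0.92.

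Between classes, 2 of the 19 pathway genes tested were called in each comparison with α/β (10.5%, beside 3.1% of all genes tested against γ and 4.89% against α′/β′), and 0 of 19 between γ and α′/β′ by limma (beside 2.82%). The calls in the list of channel, feedback and shut-off genes were Calx and rdgC, 2 of 5 tested, both higher in γ than in α/β (log2 differences 1.92, SE 0.25, limma adjusted p = 0.000144, and 2.35, SE 0.29, limma adjusted p = 7.3e-05) and both higher in α′/β′ than in α/β (1.20 and 2.37, limma adjusted p = 0.00634 and 2.9e-05). Their direction is opposite to that of ninaE. Of the 7 G protein and lipid cycle genes, the 6 other opsins and the 1 retinoid supply gene tested, 0 were called in any class pair by limma. At an unadjusted limma p under 0.05 there were 1, 3 and 4 of the 14 between γ and α′/β′, γ and α/β, and α′/β′ and α/β. The share of all genes tested at that level was not counted. Over the 7 subtypes the F test called 7 of the 19, or 36.8% beside 14.4% of all genes tested. They were Ggamma30A and rdgA of the G protein and lipid cycle, Rh4 and Rh7 of the opsins, and Calx, rdgC and rtp of the channel, feedback and shut-off genes. Of the 2 other photoreceptor markers tested, eys was called lower in γ than in α′/β′ (-1.59, SE 0.34, limma adjusted p = 0.0105). It was also called higher in α′/β′ than in α/β (1.14, SE 0.31, limma adjusted p = 0.0354), and both directions were those of the norpA differences.

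The transcript table splits each member by annotated transcript, 24 in all, of which 2 were listed at 0 in every library. For ninaE, ninaA, inaC and Arr2 the annotation has 1 transcript. The member with the most transcripts was norpA, where RD made up 42.6% of the summed gene level and RC 31.8%. RD was estimated at 7.17 and 0 TPM in γd, 31.9 and 33.9 in γm+d, 416 and 420 in α′/β′ap+m, then 362 and 368 in α′/β′m, 42.4 and 123 in α/βp, 178 and 145 in α/βs, and 221 and 243 in α/βc. RC stood at 368 and 188 TPM in γd, 25.1 and 24.0 in γm+d, 122 and 111 in α′/β′ap+m, then 178 and 196 in α′/β′m, 416 and 52.8 in α/βp, 68.2 and 84.8 in α/βs, and 64.1 and 36.0 in α/βc. RC exceeded RD only in the γd libraries and in α/βp replicate 1.

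Of RD and RC together, RD was thus 1.91% and 0% in γd and 9.26% in α/βp replicate 1, and between 56.0% and 87.1% in the other 11 libraries. In α/βp replicate 2 it was 69.9%, so the replicates of that subtype disagreed. The 3 libraries with little RD are also the 3 with the fewest genes above 0 TPM (5632, 7601 and 6534), and the part of library depth or amplification in the exchange was not tested. The 2 transcripts differ outside the coding sequence. RD has upstream exons at X:4322626-4323155 (530 bases) and X:4332796-4332840 (45 bases) where RC has one at X:4347918-4348030 (113 bases), and RD extends 529 bases farther at the 3′ end (X:4364880-4365408). The low norpA level of γm+d did not follow this exchange, since both transcripts were low there.

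**Figure D5:**
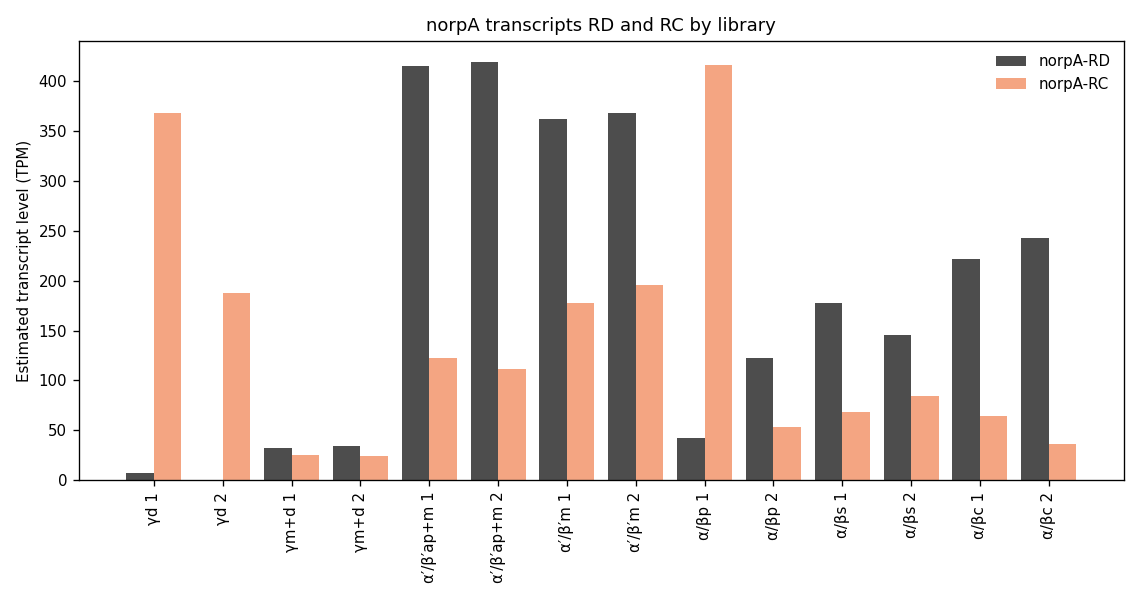
Estimated level of the norpA transcripts RD (dark bars) and RC (light bars) in each of the 14 libraries, in TPM from 0. RC exceeds RD in both γd libraries (368 and 188 against 7.17 and 0 TPM) and in α/βp replicate 1 (416 against 42.4), and RD exceeds RC in the other 11.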

How the data were processed

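Nuclear RNA of 7 Kenyon cell subtypes, 2 replicates each, was sequenced by the authors (14 libraries). Per the paper's methods, the authors trimmed the reads, assigned them with kallisto (version not given in the sources used here) to the Ensembl release 91 transcripts of BDGP6, took out the entries for spike-ins, the reporter and ribosomal RNA, and rescaled the remainder to give the deposited TPM values, which hold no counts. Transcript and gene TPM were used (30484 transcripts, 13931 genes), every column was matched to a sample (0 without one), and tables of means were not used. The read numbers in the supplement of the paper were not used, and precision rests on the replicates alone. Groups came from the driver and cell type labels.

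Class and subtype differences were fitted to all genes that reached 10 TPM in any library by limma 3.58.1 in R 4.3.3 (log2(TPM + 1), quantile normalization, variance trend, two-sided, Benjamini-Hochberg). The paper's thresholds were used for class pairs, and the subtype F test had no fold threshold. The voom fit of the paper was not run, since it needs counts. Fold changes on this scale understate those of low genes. The steps were tested on simulated data. Pearson and Spearman correlations used unnormalized log2(TPM + 1) in Python 3.11.15 with pandas 2.3.3. Positions, exons and strands came from the Ensembl release 115 annotation of BDGP6.

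The members, lists, tests and alternatives were chosen with earlier results of these data known. Named were the 10 members, for ninaE and each member with an r under 0.5 with it the 5 most alike genes, and from each list the 2 genes with the highest mean and any called in a class pair. Lists covered other opsins, the G protein and lipid cycle, channel, feedback and shut-off, retinoid supply, other photoreceptor markers, lens and other retina, glia, fat body, muscle, antenna and chemosensory, haemocyte, other transmitters, Kenyon cell and neuron. Alternatives were other scalings, pseudocounts and filters, no variance trend, a replicate block, 1 value per subtype and libraries left out. Sequences of the members were not used here.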

Additional observations from a re-analysis of the deposited data

Results flagged for a closer look

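Within each class, a library whose gap to its nearest neighbour exceeded Dixon's 95% critical value was noted for 8 of 30 combinations of gene and class. That value stands for about 1 in 20 only for normal values of 1 group. TPM of low genes are skewed and a class holds different subtypes, so the count was not set against chance. In the α/β class α/βp replicate 2 stood above the other 5 libraries for ninaE (3569 TPM), trp (47.9 TPM), trpl (24.9 TPM), inaC (22.6 TPM) and Arr1 (56.8 TPM). In the α′/β′ class α′/β′m replicate 2 stood above the other 3 for trp (15.1 TPM) and inaC (18.8 TPM). In the γ class γm+d replicate 2 stood above the other 3 for inaD (4.16 TPM). Apart from ninaE itself, where this holds by definition, the library in each of these cases was the one of its class with the most ninaE. No combination with norpA met the rule.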

How the results depend on the processing

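The number of members called was small and depended on the settings. It was 1 between γ and α′/β′ and 1 between γ and α/β, and both became 0 under median-of-ratios scaling, with no filter on low values, with no variance trend and with 1 value per subtype, and the latter also 0 without the 2 libraries with the fewest genes. Between α′/β′ and α/β it was 0, and 1 (ninaE) under median-of-ratios scaling and with the replicate block. Over subtypes it was 2, and 1 with no filter and with no trend. Leaving out 1 library gave 0 to 1 for each class pair and 1 to 3 over subtypes. The replicate block (limma adjusted p = 0.043 for ninaE) changed no other call. No label pairs the replicate numbers, and deviations of same-numbered libraries correlated over 0.1 in 3 of 21 pairs of subtypes. Over all genes, 1 value per subtype gave 56, 57 and 160 calls in place of 244, 268 and 423, and the subtype count of 1248 ran from 717 to 2083 with 1 library left out and reached 1961 otherwise. Scaling moved the median of all genes between γ and α′/β′ from -0.16 to -0.88 without quantile normalization and to -0.50 with median-of-ratios, and between γ and α/β from -0.11 to -0.60 and -0.34. The norpA difference between γ and α′/β′ ran from -2.41 to -1.39 and that of ninaE between γ and α/β from -1.90 to -1.17. Of the 30 member values for class pairs, 16 changed sign in at least 1 alternative, with no call on either side. The median correlation of the members with ninaE (0.54) ran from 0.39 to 0.63 with 1 library left out and from 0.37 to 0.66 otherwise. The cause of these changes was not tested. The read numbers behind the values of low members were not available here, which limits every statement on a gene listed at 0.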
